A study of Mus musculus with 24 samples.

Results

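Spinal cords of 5 unchallenged mice labelled Act1 KO were compared with those of 5 unchallenged wild-type (WT) mice. The arrays were chosen by the sample titles, which give the challenge and the genotype, and they are 10 of the 24 arrays of the study, each hybridized with the cord RNA of 1 mouse. Both groups were left without irradiation, T cell transfer or disease. The methods describe female littermates of 8 to 12 weeks, but they do not say how the Act1 gene was disrupted in the mice used for these arrays. They do not say either whether every cell lacked it, and the heat map of these arrays in the paper is headed Act1+/− where the labels say WT. The remaining 14 arrays came from mice irradiated with 500 rad and given MOG-reactive T cells: 5 WT recipients of Th1 cells, 5 WT recipients of Th17 cells and 4 Act1 KO recipients of Th17 cells. Recipients were killed 12 days after transfer, which the paper calls the peak of disease and the labels call the onset of symptoms.

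Act1 is an adaptor protein that binds the cytoplasmic part of the IL-17 receptor and passes its signal on to TRAF proteins, NF-κB and mRNA-stabilizing factors. It is also known as a negative regulator of CD40 and BAFF receptor signalling in B cells. In the spinal cord, astrocytes, microglia and oligodendrocyte progenitor cells can respond to IL-17, whereas an unchallenged cord holds few of the T cells that secrete it. The comparison of unchallenged mice therefore asks how the cords of the genotypes differed before any transfer.

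Values are on the log2 scale after RMA, a procedure of background correction and quantile normalization that gives each probe set 1 value per array. They carry no detection call, and the array medians of 3.46 to 3.57 mark levels near the background. Each of 17097 genes was read from the brightest of its probe sets, and 6378 genes had means under 3.46 in both naive groups. Arrays of the same naive group correlated at 0.986 to 0.997. Act1 KO mice 4 and 5 stood apart from the other 8 naive arrays on the first principal component, which held 34.5% of the variance (34.79 and 16.92 against −17.74 to 3.21). The same mice had the lowest 3′ minus 5′ differences of the β-actin control probe sets among the naive arrays (0.396 and 0.492 against 0.619 to 0.800). Those of the Pcx control were also lowest (3.592 and 3.719 against 3.801 to 4.293). The GAPDH control did not go the same way, with 0.238 and 0.312 against −0.029 to 0.259. Mice 4 and 5 also had the smallest spread of values over all probe sets (SD 2.08 and 2.09 against 2.12 to 2.15). The markers of the expected tissue were bright: over the lists described below, array means were 8.53 to 8.90 for neurons, 8.96 to 9.01 for astrocytes and 10.02 to 10.37 for oligodendrocytes. Dorsal root ganglion markers (3.51 to 3.61) and skeletal muscle markers (3.54 to 3.77) were near the background. In RNA of a whole cord, fewer cells of a type and less RNA per cell cannot be told apart.

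Traf3ip2, the gene that encodes Act1, was higher and not lower in the cords labelled Act1 KO. It was read by 1 probe set, 1448508_PM_at. The 5 WT mice stood at 4.28, 4.34, 4.15, 4.60 and 4.07, and the 5 mice labelled Act1 KO at 5.38, 5.70, 5.39, 5.43 and 5.92. The groups did not overlap, and each labelled KO mouse was above the highest WT mouse. The difference was 1.27 on the log2 scale (SE 0.11, 2.42-fold, limma adjusted p = 4.66e-08), and the exact permutation test of 5 against 5 gave p = 0.00794, the smallest it can give. Among Th17 recipients, the 4 mice labelled Act1 KO stood at 5.59 to 5.83 and the 5 WT mice at 5.14 to 5.56, with a smaller difference of 0.31 (SE 0.12, adjusted p = 0.0358). Where the probes lie relative to the disrupted part of the gene is not given in the sources used here, so this probe set does not check the genotype, and "labelled Act1 KO" is meant wherever KO is written below.

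**Figure D1:**
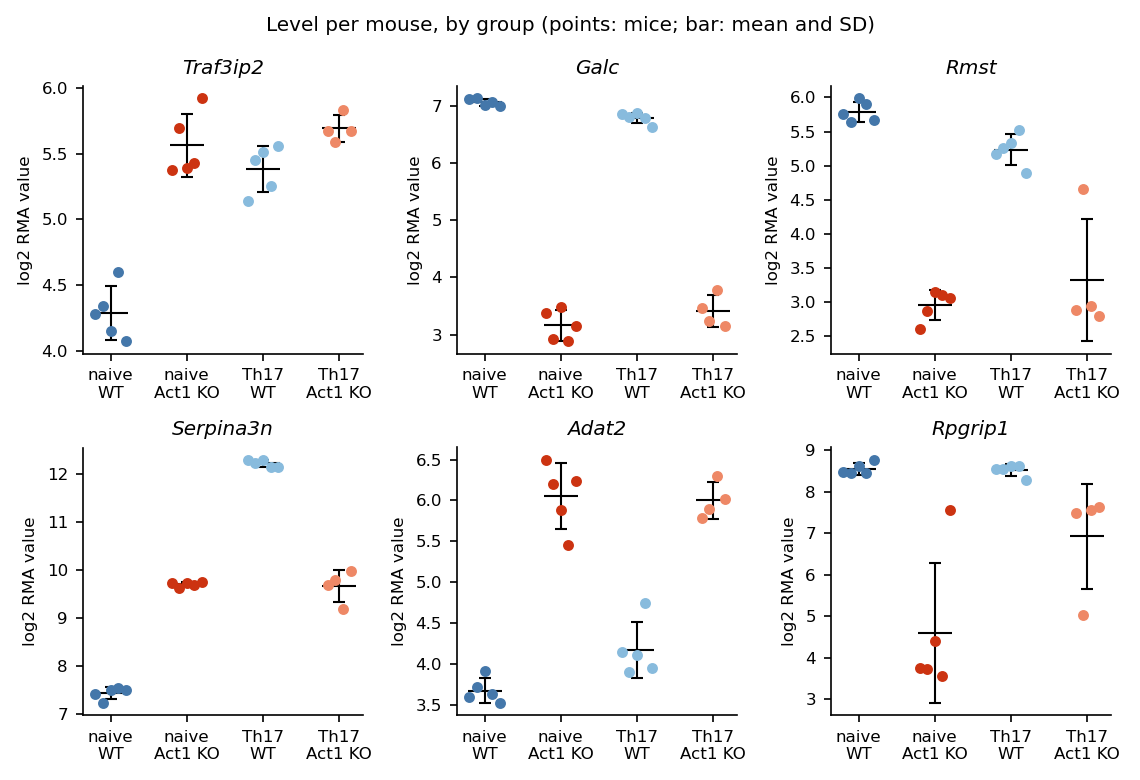
Log2 RMA values of 6 genes in each mouse, for naive WT (n = 5), naive Act1 KO (n = 5), Th17 WT (n = 5) and Th17 Act1 KO (n = 4) mice; points are mice and the bar is the mean with its SD. Traf3ip2, Serpina3n and Adat2 were higher in naive KO than in naive WT mice and Galc, Rmst and Rpgrip1 lower, with Rpgrip1 in KO mouse 5 at 7.57 close to the WT mice.

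Across the genome, few genes separated the unchallenged cords, and most of those were lower in KO mice. With limma and Benjamini-Hochberg adjustment over all genes, 100 of 17097 genes passed an adjusted p of 0.05 and are named called below (0.585%). Of these, 28 were higher (0.164% of genes) and 72 lower (0.421%) in KO mice. The median size of the difference was 0.72 among called genes against 0.08 among all genes, and 69 called genes differed at least 1.5-fold and 28 at least 2-fold. The 5 KO and 5 WT values did not overlap in 92 of the 100, against 301 of all genes (1.76%). The 100 were called on these same values, so the 92 are no separate evidence for the calls. None of the 6378 dim genes was called, and the median WT level of called genes was 6.23 against 4.62 for all genes. KO mice varied more among themselves than WT mice did, with a median SD of 0.18 against 0.13 over all genes and of 0.24 against 0.16 over called genes. Without KO mice 4 and 5, 66 genes were called, 58 of them among the 100, and all 100 kept their sign with a median size of 0.71. The title code of each array holds a letter, whose meaning the labels do not give, and with the letter as a block 35 genes were called, 27 of them among the 100. The mean alphabetical rank of the letter was 5.2 in naive KO and 3.8 in naive WT mice. With this rank as a linear term, 112 genes were called, 91 of them among the 100. In that fit 3002 of the 17097 genes followed the letter, 8 of them among the 100. A fit of the 10 naive arrays only called 68 genes, 61 of them among the 100.

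**Figure D2:**
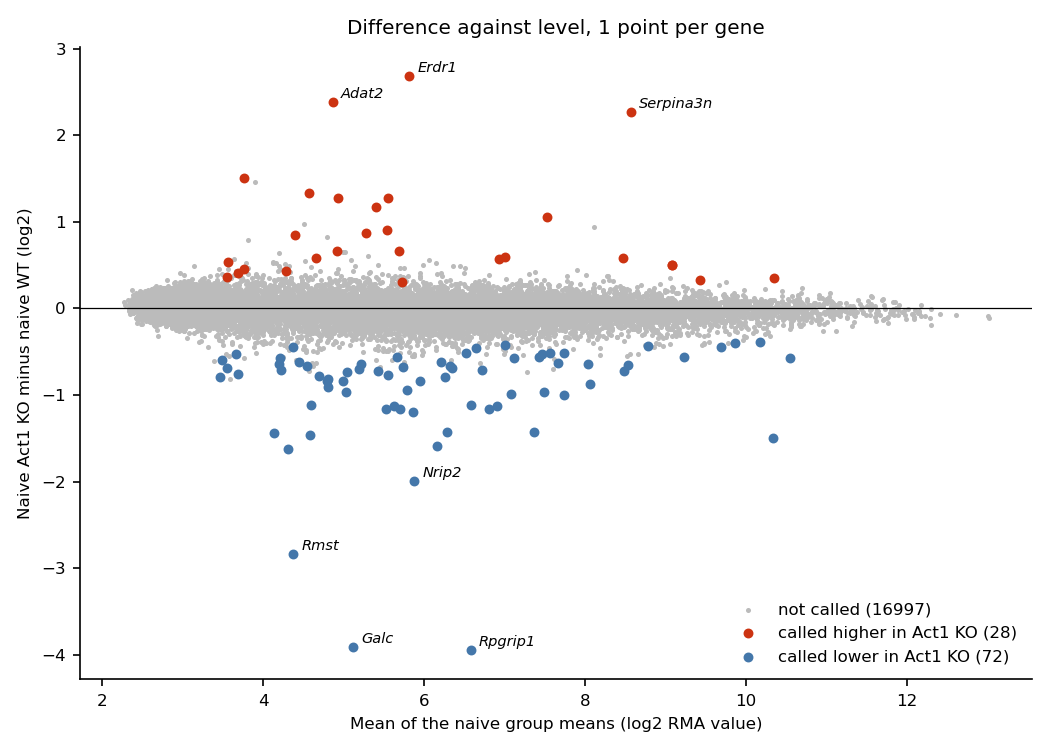
Naive Act1 KO minus naive WT difference (log2) against the mean level of the 2 groups (log2 RMA value), 1 point per gene. Called genes are in red (28 higher) and blue (72 lower), and the other genes lie in a band around 0.

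The largest decreases were found in genes of unrelated roles. Galc encodes galactosylceramidase, the lysosomal enzyme that breaks down the myelin lipid galactosylceramide. It stood at 7.13, 7.14, 7.01, 7.07 and 7.005 in WT mice and at 3.38, 2.92, 3.48, 2.88 and 3.15 in KO mice, with no overlap. The KO level lay at the background, so the decrease was at least 12.2-fold when the KO mean was set to the lowest array median (fitted difference −3.91, SE 0.11, adjusted p = 1.43e-18). Rmst, a long non-coding RNA of neural tissue, was 5.64 to 5.99 in WT mice and 2.60 to 3.14 in KO mice, at least 5.02-fold lower (difference −2.84, SE 0.22, adjusted p = 1.03e-08). Both genes separated the genotypes in every naive mouse.

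Rpgrip1, which encodes a ciliary protein that binds RPGR, was not uniform within the KO group. WT mice stood at 8.44 to 8.78 and KO mice 1 to 4 at 3.75, 3.74, 4.40 and 3.57, whereas KO mouse 5 stood at 7.57. The mean difference of −3.95 (SE 0.52, adjusted p = 5.25e-05) averages over this split. The values of Ppp1r3e, a regulatory subunit of protein phosphatase 1 on the same chromosome 14, had the same split and were singled out after they were seen. KO mice 1 to 4 stood at 4.8 to 5.1 and KO mouse 5 at 6.4, among WT values of 6.3 to 6.7 (difference −1.20, SE 0.20, adjusted p = 0.00192). Its other probe set did not show the split, with 3.22 in KO mouse 5 and 2.48 to 3.07 in the other KO mice against 3.58 to 4.62 in WT mice.

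The other large decreases were between 2.24-fold and 3.98-fold. Nrip2, encoding a nuclear receptor-interacting protein, fell by 1.99 (SE 0.25), and Smco3, encoding a small membrane protein, fell by 1.62 (SE 0.13). Ctsc encodes cathepsin C, the lysosomal protease that activates serine proteases of immune cell granules. It was 6.4 to 7.3 in WT mice and 5.2 to 5.6 in KO mice (difference −1.58, SE 0.18, adjusted p = 5.93e-06). When all probe sets of the gene were averaged it was no longer called, but the others were at the background in both groups (means 2.64 to 2.87). Lpcat2, an acyltransferase that makes platelet-activating factor, fell by 1.43 (SE 0.20). Its lowest value of 5.43 belonged to KO mouse 4, while the other KO mice stood at 6.78 to 7.15 and WT mice at 7.9 to 8.3. The adhesion gene Ninj2, the cohesin subunit Rec8, the E3 ubiquitin ligase Trim13 and the zinc finger gene Zfp386 fell by 1.47, 1.44, 1.42 and 1.16 without overlap between groups, and since the KO mean of Rec8 was at the background, its decrease was at least 2.62-fold.

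Among the increases, Serpina3n was the most even. It encodes a secreted serine protease inhibitor that marks reactive astrocytes. WT mice stood at 7.41, 7.22, 7.50, 7.53 and 7.49 and KO mice at 9.72, 9.62, 9.72, 9.69 and 9.75. The groups were far apart and the KO mice varied little (SD 0.05, n = 5; difference 2.27, SE 0.11, 4.82-fold, adjusted p = 1.02e-13). Adat2, a subunit of the enzyme that deaminates adenosine in tRNA anticodons, was 3.52 to 3.91 in WT and 5.46 to 6.50 in KO mice (difference 2.39, SE 0.16, 5.22-fold, adjusted p = 4.55e-10). The ciliary gene Cfap54 was at the background in WT mice (2.9 to 3.1) and stood at 5.1, 5.0, 4.9, 4.1 and 3.6 in KO mice, at least 2.08-fold higher.

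The remaining large increases without overlap between the groups ranged from 1.59-fold to 2.52-fold. They were the unannotated transcript 1700063D05Rik (difference 1.34, SE 0.15), the heme-binding protein gene Hebp1 (1.27, SE 0.16), the chemokine Ccl25, which attracts thymocytes and gut T cells (1.17, SE 0.15), the ribonuclease Rnase1 (0.91, SE 0.18), the hydrolase gene Fhit (0.87, SE 0.14), the HMG-box gene Tox3 (0.85, SE 0.12), the lipid transporter Abca8a (0.67, SE 0.15) and the RNA-editing family member Adarb2 (0.67, SE 0.12). Abca8a lost its call when any of KO mice 1, 2 and 4 or WT mice 2, 3 and 5 was left out. Erdr1, singled out after its values were seen because the groups overlapped, had the largest mean increase (2.69, SE 0.52, adjusted p = 0.00750). WT mice stood at 4.5, 3.3, 7.0, 3.9 and 3.6, so that WT mouse 3 lay at the level of the KO mice (6.3 to 7.6). Cap1, singled out in the same way, was also called higher with overlapping groups (difference 1.055, SE 0.22, 2.08-fold, adjusted p = 0.0152 by limma).

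The called genes were spread unevenly over the chromosomes. Chromosome 8 held 25 of its 885 measured genes (2.82%) and chromosome 14 held 18 of 604 (2.98%), against 0.585% of all genes. Chromosomes 6, 10 and 12 followed with 11 of 945 (1.16%), 9 of 813 (1.11%) and 6 of 575 (1.04%). The 5 chromosomes with the most calls (8, 14, 6, 10 and 11) held 70 of the 100 called genes and 27.1% of the measured genes. They were picked by their number of calls, so an excess over their share of genes follows in part from the choice. Chromosome 11, with 7 of 1371 (0.511%), was below the share of all genes. Called genes also lay near each other: 42 had another called gene within 10 measured genes in gene order, a position that 8.71% of all measured genes had. On chromosome 8, Dusp26, Rnf122, Fut10 and Wrn fell within 8 consecutive measured genes, with differences of −0.65, −0.77, −0.62 and −0.69, the last with KO mice at the background (at least 1.35-fold). On chromosome 14, the neighbours Cfap20dc, Fhit and Ptprg differed by −0.76 (KO mice at the background, at least 1.53-fold), 0.87 and −0.71, so that adjacent genes did not share a direction. These genes were chosen for their position after their values were seen, and the cause of the clustering was not tested.

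**Figure D3:**
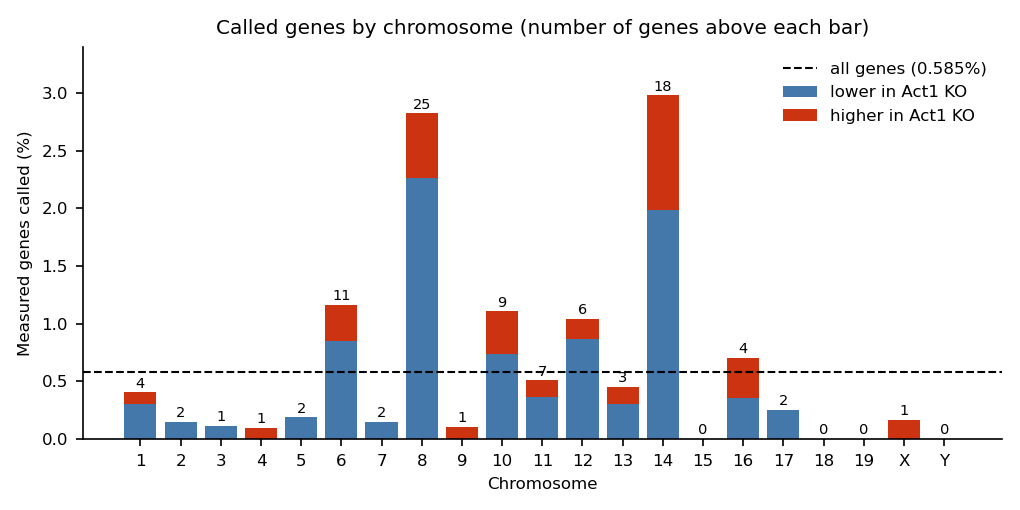
Share of measured genes on each chromosome that were called between naive Act1 KO and naive WT mice (%), split into lower (blue) and higher (red) in KO mice, with the number called above each bar. Chromosomes 8 and 14 reached 2.82% and 2.98% against 0.585% over all genes (dashed line).

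No other gene near Traf3ip2 on chromosome 10 was called, with counts near the share of all genes. None of the 10 nearest measured genes was called (differences −0.24 to 0.04, lowest adjusted p = 0.782), and none passed an unadjusted limma p of 0.05. Of these, Tube1, Ccn6, Gm16364, Mfsd4b5, Mfsd4b1 and Slc16a10 had means under 3.46 in both naive groups, where no gene was called. The brightest of the 10 were Fyn, a Src-family kinase of oligodendrocytes and neurons (−0.13, SE 0.08), and Rev3l, the catalytic subunit of DNA polymerase zeta (−0.22, SE 0.17). Unadjusted, Fyn had p = 0.0172 by the methods' t-test, 0.0317 by the exact permutation test and 0.0556 by the exact Mann-Whitney test. Out to 100 measured genes on each side, 0 of 200 were called by limma (0.585% of all genes), and 14 had an unadjusted p under 0.05, against 7.31% of all genes. The next called genes on the chromosome were Adat2, 107 measured genes before Traf3ip2, and Ilvbl, 232 after it. Farther on, Rmst, Cfap54, Ndufa12 and Cep83os lay within 21 consecutive measured genes, with differences of −2.84, 1.503, −1.49 and −0.72.

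Most other probe sets of the called genes had the sign of the chosen one, and a few were called the other way. Of the 100 called genes, 51 had a second named probe set, and 32 had one above the background in at least 1 naive group. For 24 of these 32 every such probe set had the sign of the chosen one, and for 8 at least 1 had the opposite sign. When all 45118 probe sets were tested on their own, 218 were called (0.483%). Of the 40 other probe sets above the background, 32 had the sign of the chosen one, and 6 were called with that sign and 3 with the opposite sign. The 6 were both other probe sets of Nrip2 (−0.76 and −0.66 against −1.99) and those of Ppp1r3e (−1.29), Zfp386 (−0.79), Cpox (−0.95) and Fut10 (−0.63).

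Xaf1, an interferon-induced gene of the apoptosis pathway, was the clearest case of opposite readings. Its chosen probe set, 1443698_PM_at, was 6.20, 6.21, 6.24, 6.29 and 6.04 in WT and 5.67, 4.71, 4.62, 5.70 and 4.65 in KO mice (difference −1.13, SE 0.21, adjusted p = 0.00489). The other, 1443621_PM_at, was 2.9 to 3.3 in WT and 6.6, 7.7, 7.7, 6.4 and 7.7 in KO mice (difference 4.16, SE 0.36, adjusted p = 5.59e-08 over all probe sets), at least 13.6-fold higher since the WT mice were at the background. Within the KO group the readings were mirrored, since mice 1 and 4 were the highest on the first and the lowest on the second. Averaging the probe sets turned the direction of Xaf1, to 1.51 (adjusted p = 1.15e-06).

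Galc and Calr3 also had probe sets called both ways. While 1452907_PM_at of Galc fell to the background, 1420547_PM_at rose from 4.2 to 4.3 in WT mice to 4.6 to 5.3 in KO mice (difference 0.70, SE 0.13, adjusted p = 0.00872), and the third, 1449900_PM_at, was at the background in both groups (means 2.40 and 2.52). Calr3, encoding a calreticulin of the testis, was near the background on both of its called probe sets, one 0.54 higher and the other 0.76 lower in KO mice. Ndufa12, an accessory subunit of mitochondrial complex I, fell by 1.49 on its chosen probe set (10.9 to 11.2 in WT, 8.7 to 10.7 in KO mice, adjusted p = 0.00696). Its next probe set stood at 10.2 to 10.4 in WT and 10.1 to 10.6 in KO mice and was not called (difference 0.15, SE 0.10, adjusted p = 0.855). For these genes the level of the gene itself cannot be read from 1 probe set.

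A further 36 genes were not called on their chosen probe set but on another, 25 of them lower and 11 higher in KO mice. The naive groups did not overlap in 34 of the 36, against 1.54% of all probe sets. The 36 were called on these same naive arrays, so these shares cannot be compared directly. In 13 of the 36 the chosen probe set had the opposite sign. The following examples were singled out after their values were seen. One probe set of Prdx2, a peroxiredoxin abundant in neurons and red cells, was 7.7 to 8.2 in WT and 5.2 to 6.5 in KO mice (−2.30, SE 0.27, adjusted p = 8.89e-06), while its brighter one was 0.31 higher in KO mice (SE 0.09, adjusted p = 0.217). Ywhaz, which encodes the 14-3-3 zeta protein, was 6.6 to 7.1 in WT and 8.2 to 8.6 in KO mice on one probe set (1.44, SE 0.16) and 10.9 to 11.4 against 11.1 to 11.2 on the brighter one (0.04, SE 0.10). Fam32a differed by 1.59 on one probe set (SE 0.17) and by 0.37 on the chosen one, Cuedc1 by 1.51 (SE 0.19) and 0.17, and Rap2b by −1.24 (SE 0.11) and −0.02.

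**Figure D4:**
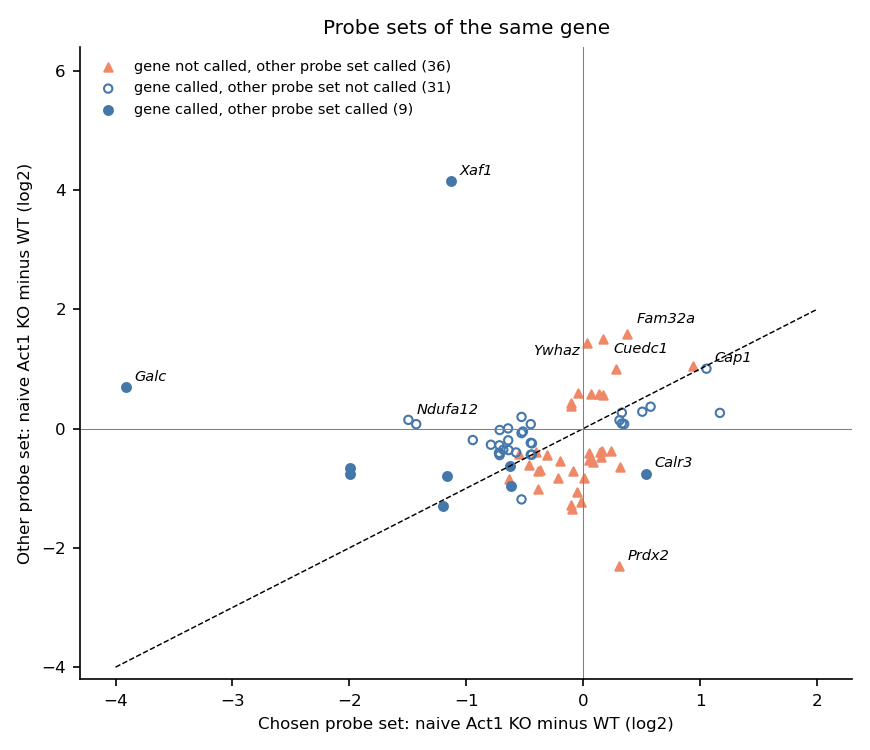
Naive Act1 KO minus naive WT difference (log2) on other probe sets of a gene against that on the chosen, brightest probe set. Circles are 40 other probe sets of called genes, filled where called on their own (9), and triangles are the 36 called probe sets of genes not called; the dashed line marks equal differences. Xaf1 (−1.13 and 4.16), Galc (−3.91 and 0.70) and Calr3 (0.54 and −0.76) lie in opposite quadrants.

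The gene lists are read against all genes, of which 0.585% were called and 7.31% had an unadjusted p under 0.05, so that 0 calls in a short list is near the background. Of 23 measured genes of IL-17 receptor signalling 0 were called by limma, and 2 (8.70%) had an unadjusted p under 0.05, the splicing factor Srsf1 (0.32 higher) and the deubiquitinase Usp25 (0.29 lower). The median difference of the list was −0.01, against 0.00 for all genes. The receptor chain Il17ra was 4.5 to 4.8 in WT and 4.4 to 5.2 in KO mice (difference 0.14, SE 0.14, 95% interval −0.14 to 0.43). Of 23 IL-17 target genes 0 were called and 1 (4.35%), the chemokine Cxcl5 (0.23 higher), had an unadjusted p under 0.05, and 19 of the 23 were near the background in both groups. Among the targets, Cxcl1, a neutrophil chemokine, differed by 0.03 (SE 0.15), the metalloreductase Steap4 by 0.08 (SE 0.26), the pentraxin Ptx3 by 0.09 (SE 0.17) and the monocyte chemokine Ccl7 by 0.10 (SE 0.15). The calprotectin subunit S100a9 and ceruloplasmin (Cp) differed by −0.01 (SE 0.37) and −0.12 (SE 0.15).

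B cell and NOTCH lists held no called gene, which at 0.585% of all genes does not set lists of this size apart. Of 14 genes of CD40 and BAFF signalling and 12 B cell and plasma cell markers 0 were called and 0 had an unadjusted p under 0.05, with 11 of the 12 markers near the background. Among 16 genes of NOTCH receptors, their ligands and their processing, 0 were called and 0 had an unadjusted p under 0.05, with Notch1 6.50 to 6.78 in WT and 6.29 to 6.54 in KO mice (difference −0.16, SE 0.09, adjusted p = 0.769). Of 10 NOTCH target genes 0 were called by limma and 3 (30.0%, against 7.31% of all genes) had an unadjusted p under 0.05, Hes1 (0.30), Nrarp (−0.33) and Id3 (−0.50). The ligand Jag1 (0.02, SE 0.09) and the transcription factors Hes5 (0.09, SE 0.09) and Hes7 (0.06, SE 0.09) were near the background.

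Of the 32 gene lists, 3 held a called member each, so that 3 of 359 measured members were called (0.836%), near the 0.585% of all genes. Serpina3n was the only 1 of 13 pan-reactive astrocyte genes called, and the list's median difference was −0.07. The mean level of the 13 was 5.29 to 5.36 in WT and 5.36 to 5.50 in KO mice. Without Serpina3n the other 12 averaged 5.11 to 5.18 in WT and 5.00 to 5.15 in KO mice, which overlapped, and 8 of them were below 0. Lgals3, encoding galectin 3 of macrophages and activated microglia, was the only 1 of 15 monocyte and macrophage markers. It was 5.03, 4.93, 5.45, 5.35 and 5.56 in WT and 4.05, 4.19, 4.28, 4.96 and 4.30 in KO mice, with KO mouse 4 inside the WT range (difference −0.91, SE 0.20, adjusted p = 0.0223). Its call was lost when any of KO mice 1, 2, 3 and 5 or WT mice 3, 4 and 5 was left out. The complement gene C4b, 1 of 9, was 7.85 to 8.15 in WT and 7.12 to 7.83 in KO mice (difference −0.63, SE 0.11, adjusted p = 0.00295).

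Astrocyte, neuron, oligodendrocyte progenitor, microglia, T cell and neutrophil markers and interferon-induced genes (12, 19, 11, 10, 10, 12 and 14 measured) had 0 called members each, and 0, 1, 0, 0, 0, 1 and 0 with an unadjusted p under 0.05, together 2 of 88 (2.27%, against 7.31% of all genes). Their median differences lay between −0.08 and 0.08, and their array means overlapped between the groups. Microglia markers averaged 5.15 to 5.32 in WT and 5.07 to 5.25 in KO mice. A difference above 0 was found in 1 of the 10 microglia markers and 8 of the 10 T cell markers, against 8688 of all 17097 genes.

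Myelin and cholesterol genes leaned the same way without a call. All 11 oligodendrocyte and myelin markers had a difference below 0 (median −0.17), as 49.2% of all genes did, while 0 were called by limma and 3 (27.3%, against 7.31% of all genes) had an unadjusted p under 0.05. Their mean level was 10.20 to 10.37 in WT and 10.02 to 10.12 in KO mice, without overlap. Mog, myelin oligodendrocyte glycoprotein, was lowest (−0.45, SE 0.14, adjusted p = 0.231). All 14 cholesterol synthesis enzymes were below 0 as well (median −0.28), with 0 called and 6 (42.9%) at an unadjusted p under 0.05. The mean level of the enzymes was 7.69 to 7.95 in WT and 7.45 to 7.68 in KO mice, and it overlapped after quantile normalization and after centring on ribosomal protein genes. Without KO mice 4 and 5, 10 of the 11 and 12 of the 14 stayed below 0. Between the genotypes of Th17 recipients the median differences were above 0, at 0.725 for the myelin and 0.838 for the cholesterol list. Members of these lists were named after their values were seen, and whether the shift bears on Galc was not tested.

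The Th17 recipients gave a second genotype comparison on 9 other arrays. There, 7214 genes were called (42.2%), 24.6% of genes higher and 17.6% lower in KO mice, so a call in recipients was common. Of the 100 genes called between naive mice, 69 had the same sign in recipients and 57 of these were called. The share of all genes with the same sign in both comparisons is not given here, so 69 has no background value beside it. Of the 31 with the opposite sign, 13 were called. By the test of the difference between the genotype differences (5479 genes called, 32.0%), 65 of the 100 differed and 35 did not pass. In 26 of the 100, all 9 KO arrays lay on the same side of all 10 WT arrays, naive and recipient together. Of all genes, 48 did so (0.281%). The 100 were chosen on the naive arrays, which enter the counts of 65 and 26 again. Neither count can therefore be read as an independent excess over all genes.

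**Figure D5:**
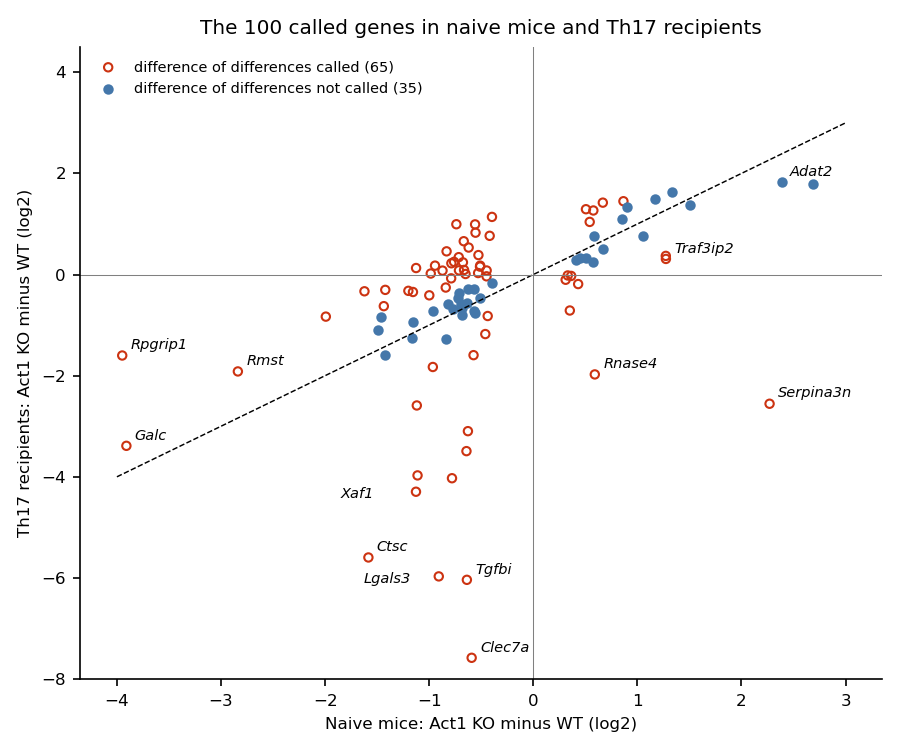
Act1 KO minus WT difference (log2) of the 100 called genes in Th17 recipients (4 against 5 mice) against that in naive mice (5 against 5); the dashed line marks equal differences. Filled points are 35 genes whose difference of differences was not called and open circles the 65 for which it was.

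Several of the largest naive differences were about as large in recipients. Galc was 6.64 to 6.87 in Th17 WT and 3.15 to 3.78 in Th17 KO mice (difference −3.39, SE 0.12). With the KO means at the background, this was a decrease of at least 10.0-fold, against at least 12.2-fold in naive mice. Adat2 differed by 1.83 (SE 0.17) against 2.39 in naive mice, Cfap54 by 1.38 against 1.503, 1700063D05Rik by 1.63 against 1.34, Ccl25 by 1.49 against 1.17 and Lpcat2 by −1.60 against −1.43. For Adat2, Cfap54, 1700063D05Rik, Ccl25 and Lpcat2 the difference of differences was not called. Single mice again departed from their group. Rmst was 2.88, 2.94 and 2.79 in Th17 KO mice 1, 3 and 4 and 4.66 in Th17 KO mouse 2, with Th17 WT mice at 4.89 to 5.52. Rpgrip1 was 7.49, 5.04, 7.56 and 7.63 in the 4 Th17 KO mice, so 3 of them stood near naive KO mouse 5 and none at the level of naive KO mice 1 to 4, with Th17 WT mice at 8.28 to 8.63.

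The opposite probe sets kept their directions in recipients. The second probe set of Xaf1 was 3.35 higher in Th17 KO mice (SE 0.38), that of Galc 1.17 higher (SE 0.14) and that of Calr3 0.39 lower (SE 0.12), and all 3 were called over all probe sets (31.9% called), although both recipient means of the Calr3 probe set were at the background. Of the 36 probe sets called where the chosen one was not, 30 had the same sign in recipients and 18 of these were called. The share of all probe sets with the same sign is not given here. In 11 of the 36, among them those of Prdx2, Ywhaz, Fam32a and Rap2b, the 9 KO arrays did not overlap the 10 WT arrays. Over all probe sets the share was 0.250%. The naive arrays on which the 36 were called are counted again here, so these shares cannot be compared directly.

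For other genes the difference in recipients was reversed or larger. Serpina3n was 12.13 to 12.29 in Th17 WT mice and 9.18 to 9.98 in Th17 KO mice, so the genotype order was reversed (difference −2.56, SE 0.11), and the naive KO mice (9.62 to 9.75) lay within the range of the Th17 KO mice. The difference of differences was −4.82 (SE 0.15, adjusted p = 4.57e-19). Ctsc, Lgals3, C4b and the chosen probe set of Xaf1 were lower in KO mice in both settings and by more in recipients, with −5.59, −5.97, −3.10 and −4.29. The matrix protein gene Tgfbi and the dectin gene Clec7a were singled out after their values were seen. Tgfbi was 0.64 lower in naive and 6.04 lower in recipient KO mice on the log2 scale. Clec7a was at the background in KO mice of both settings, at least 1.25-fold lower in naive mice and at least 145-fold lower in recipients. Monocyte and macrophage markers had a median difference of −4.78 in the same recipients, and their part in these values was not tested.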

How the data were processed

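Cord RNA was labelled with the GeneChip HT 3′ IVT Express Kit and hybridized on HT-MG-430PM-96 arrays. The authors deposited log2 values made by RMA for 45118 probe sets; which arrays were normalized together, and with which software version, is not given in the sources used here. Names came from the platform's annotation table (28898 with 1 symbol, 551 with several, 15669 not listed). Those with 1 symbol gave 17097 genes, each represented by the probe set with the highest mean over the 24 arrays. The linear model was that of limma 3.58.1 (lmFit, eBayes; R 4.3.3), with 5 groups in 1 fit and no covariate, and p-values were two-sided, adjusted by Benjamini-Hochberg and called under 0.05. The fit was tested on simulated data. Gene order came from GRCm38.p6, in which 17055 genes were found, and no coordinates were used. The number of arrays limits the precision.

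Named genes were Traf3ip2 and its 10 neighbours, the 12 largest called increases and decreases without overlap, called members of 32 lists (359 of 415 genes measured), genes named in the paper and genes with oppositely called probe sets. Genes, lists and comparisons were chosen with earlier results of these data known. No pair of arrays held the same values (smallest mean absolute difference 0.142). Alternatives changed the probe sets used, the handling of dim genes, the scaling, the variance model and array weights, the arrays entered and the fold threshold, added a block (replicate number, or the letter or number in the titles), dropped each array in turn, or replaced limma by the methods' t-test or by an exact Mann-Whitney test. A fit without KO mice 4 and 5 was added after seeing the data. Sequences of probes were not analysed here.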

Additional observations from a re-analysis of the deposited data

Results flagged for a closer look

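Among the named genes, 9 arrays stood apart from the other 4 of their naive group by Dixon's criterion, of 98 group checks, and chance alone marks about 5% of groups. In WT mice these were Ccl25 in mouse 5 (4.64 against 4.84 to 4.88), Rnase1 in mouse 5 (5.60 against 4.84 to 5.05) and Rec8 in mouse 3 (4.14 against 4.95 to 5.14). In KO mice they were Rpgrip1 in mouse 5 (7.57 against 3.57 to 4.40), Ccl25 in mouse 5 (5.37 against 5.98 to 6.22), Lpcat2 in mouse 4 (5.43 against 6.78 to 7.15), Lgals3 in mouse 4 (4.96 against 4.05 to 4.30), Rnase1 in mouse 4 (6.65 against 5.71 to 5.93) and Calr3 in mouse 2 (4.11 against 3.73 to 3.84).

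For 17 of the 28 called named genes, the genotype difference in Th17 recipients minus that in naive mice passed an adjusted p of 0.05 by limma. Of all genes, 32.0% passed. Many of the 28 were named for large naive differences, which enter this test, so the count is no independent result about them. The recipients' difference was the more negative or less positive for Lgals3 (−5.06), Serpina3n (−4.82), Ctsc (−4.01), Xaf1 (−3.17), C4b (−2.47), Traf3ip2 (−0.96) and Hebp1 (−0.90). It was the less negative for Rpgrip1 (2.35), Smco3 (1.29), Nrip2 (1.16), Trim13 (1.12), Rmst (0.92), Rec8 (0.81) and Galc (0.52), and the more positive for Adarb2 (0.75), Fhit (0.58) and Calr3 (0.50). The means of Galc, Rmst and Rec8 in KO mice and of Calr3 in WT mice were under 3.46 in both settings, and with these means set to 3.46 the values became 0.28, 0.56, 0.85 and 0.27. Serpina3n alone among the 17 changed direction between naive mice and recipients.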

How the results depend on the processing

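All 100 called genes kept their sign in every alternative fit, apart from Xaf1 when all probe sets of a gene were averaged (1.51) and Ndufa12 when probe sets marked _s_ or _x_ were left out (0.056, adjusted p = 0.950). Between naive genotypes, 35 genes were called with the title letter as a block, 66 without KO mice 4 and 5, 28 when a 2-fold difference was also required, and 218 of all probe sets. The methods' t-test passed 1126 genes at an unadjusted p under 0.05 and 11 after Benjamini-Hochberg. The exact Mann-Whitney test, whose smallest p is 0.00794, passed 857 and 0, and Traf3ip2 (1.27) was not called by its adjusted p of 0.451, against 1.02e-08 to 0.0321 for limma fits and the t-test. Leaving out 1 naive array gave 78 to 101 calls, and 63 of the 100 genes were called in all 10 such fits. With arrays centred on ribosomal protein genes, 14258 genes were called between Th17 genotypes and 10850 for the difference of differences. With 1.5-fold required, the Th17 count was 3874, and with 2-fold the 2 counts were 1607 and 1703. Replicate numbers are shared by the groups. The deviations of same-numbered naive arrays had correlations of −0.08, 0.26, 0.14, 0.28 and 0.07. The best-matching KO array of WT arrays 1 to 5 was number 4, 2, 2, 4 and 4. Same-numbered arrays were therefore not taken as pairs. The replicate block gave 108 calls, 94 of them among the 100. Each of 5 title numbers held 1 naive array of each genotype, and 95 of the 100 genes kept their sign in all 5. Within the 1 shared letter 99 did. With the title number as a block 97 genes were called.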
